A study of Mus musculus with 43 samples.

Results

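The transforming growth factor beta (TGF-β) pathway of glia was followed through 10 genes, chosen by name from the 55416 genes counted in 43 RNA-seq libraries. They were the ligands Tgfb1, Tgfb2 and Tgfb3, the receptors Tgfbr1 and Tgfbr2, the signal transducer Smad3, the latency anchor Nrros and the integrin subunits Itgav, Itgb5 and Itgb8. The choice used no threshold on measured values, though earlier results of these data were known, and all 10 had counts in all 4 cell types. Microglia, astrocytes, oligodendrocyte precursor cells (OPCs) and oligodendrocytes had been immunopanned, that is bound to antibody-coated dishes, from the cerebral cortex of 12 mice aged 3 months, and the study asked whether the loss of lymphocytes in Rag2-/- mice alters glial gene expression. Rag2 encodes a subunit of the recombinase that assembles antigen receptor genes, and mice without it form no mature T or B cells from birth. The mice formed 6 littermate pairs of 1 Rag2-/- mouse and 1 immunocompetent control. The controls were Rag2+/- in pairs 1, 2, 3 and 5 and Rag2+/+ in pairs 4 and 6. Microglia and astrocytes had 6 control and 6 Rag2-/- libraries each, OPCs had 6 and 5, and oligodendrocytes had 4 and 4, from pairs 1, 3, 5 and 6. Of the libraries, 17 were female and 26 male. In pair 6 the control was male and the Rag2-/- mouse female, while the mice of each other pair shared their sex. Sex and genotype thus cannot be told apart in pair 6, which bears on every count of pairs below. Because Rag2 is deleted throughout the animal, a glial difference between genotypes cannot be assigned to 1 lymphocyte class.

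TGF-β is secreted in a latent form, in which each ligand stays wrapped in its own propeptide. The complex is held in place by an anchor, which is NRROS (also called LRRC33) on microglia and an LTBP protein in the extracellular matrix. Integrins made of the αv chain, encoded by Itgav, with a β chain such as β5 or β8, encoded by Itgb5 and Itgb8, bind an arginine-glycine-aspartate motif, where the propeptide has one, and free the ligand. The free ligand binds TGFBR2, which recruits and activates TGFBR1, and TGFBR1 phosphorylates SMAD2 and SMAD3. In the brain this signal is known for keeping microglia in their homeostatic state, and loss of Nrros, of Tgfbr2 in microglia or of Itgb8 in neural cells is known to disturb that state.

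The coding bases at this integrin-binding motif are shown because the 3 ligands differ there and because the integrin chains measured below bind it. Capitals mark the codons of the motif, or in Tgfb2 the codons that align with it, and the codon number given is that of the first capital letters. All 3 stretches lie in exon 5 of the canonical GENCODE M39 transcript on GRCm39, and are given 5′ to 3′ on the coding strand.
Tgfb1, capitals from codon 244, stretch chr7:25396558-25396584, plus strand: cccaaacgtCGGGGCGACctgggcacc
Tgfb2, capitals from codon 261, stretch chr1:186362941-186362967, minus strand: acatatgccAGTGGTGATcagaaaact
Tgfb3, capitals from codon 261, stretch chr12:86108930-86108956, minus strand: gaccatggcCGTGGAGACctggggcgt
The capitals of Tgfb1 and Tgfb3 encode the motif and those of Tgfb2 do not.

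The libraries held between 6499417 and 23118497 counts on genes, with a median of 10447042. Rag2 itself had 6 counts in all over the 22 control libraries, of which 19 were at 0, and was at 0 in the 21 Rag2-/- libraries, so that the Rag2 row carries almost no check of the genotype. The mitochondrially encoded share of counts differed by cell type, at 6.75 to 11.7% in microglia, 22.5 to 45.1% in astrocytes, 22.4 to 36.7% in OPCs and 45.8 to 60.1% in oligodendrocytes. Each cell type carried its own markers at the highest level. A list of 10 microglia genes, of which 9 were matched, stood at a median of 1.28% of its microglia level in astrocytes (0.647 to 3.61%), 3.50% in OPCs (1.91 to 10.1%) and 6.22% in oligodendrocytes (3.00 to 12.2%). The OPC and oligodendrocyte libraries of pair 3 stood apart, with the list at 9.37% and 10.1% in the OPC libraries and at 12.2% and 11.4% in the oligodendrocyte libraries, in controls and Rag2-/- mice respectively. Other lists were carried over more. The oligodendrocyte list stood at 9.50 to 36.2% of its own level in astrocytes (median 21.7%), the OPC list at 6.15 to 38.8% in oligodendrocytes (median 22.04%), and the astrocyte list at 5.34 to 23.7% in OPCs (median 10.98%) and 2.44 to 11.6% in oligodendrocytes. The part of these cells in the levels of Tgfb2, Tgfb3, Itgb5 and Itgb8 outside microglia was not tested. All libraries of a cell type were sequenced on the same lane, so differences between lanes and between cell types cannot be told apart. In these bulk samples fewer cells of a type and less RNA per cell cannot be told apart either.

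Gene positions below are those of GENCODE M39 on GRCm39, and genes on the opposite strand overlap 0 to 13.03% of the exonic bases of the 10 genes. Levels are given as normalized CPM, the gene's share of the library's gene counts in the usual CPM unit, with library sizes scaled by trimmed mean of M values (TMM) over all 43 libraries. Differences between cell types and their adjusted p-values come from edgeR's quasi-likelihood test over 21368 genes with Benjamini-Hochberg adjustment, and a gene was called at an adjusted p under 0.05. Of the 10 genes, 7 were called higher in microglia than in astrocytes and 3 lower, where 33.5% and 36.5% of all genes tested were called in those directions. Against OPCs 6 were higher in microglia and 3 lower (30.8% and 38.7% of all genes), and against oligodendrocytes 7 were higher and 3 lower (34.8% and 33.2%). Microglia, thus, held the highest level of Tgfb1, Tgfbr1, Tgfbr2, Smad3, Nrros and Itgb5, and the lowest of Tgfb2, Tgfb3 and Itgb8. Those counts of 7 and 3, 6 and 3, and 7 and 3 were the same under total-count scaling, without the OPC and oligodendrocyte libraries of pair 3, and on leaving out any 1 OPC Rag2-/- or oligodendrocyte library.

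**Figure D1:**
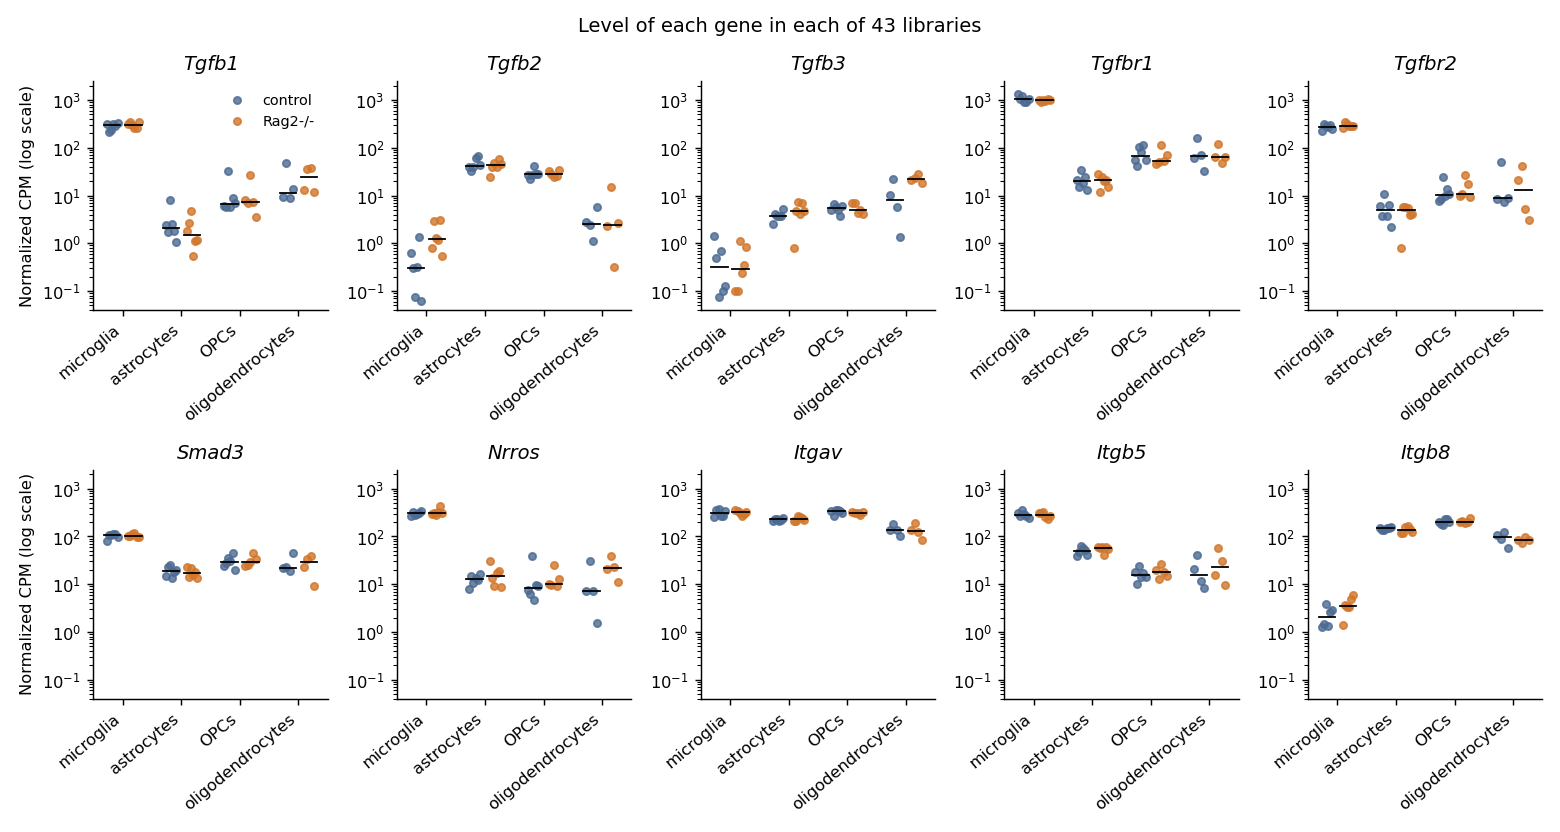
Normalized CPM (log axis) of each of the 10 genes in each of 43 libraries, by cell type, with controls in blue, Rag2-/- in orange and a bar at each group's median. Tgfb1, Tgfbr1, Tgfbr2 and Nrros stand at 217 normalized CPM or more in every microglia library, while Tgfb2, Tgfb3 and Itgb8 stand at 6.00 or less there.

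Tgfb1 (ENSMUSG00000002603, chr7:25386390-25404506, plus strand), the ligand that microglia are known to need, ranged from 217 to 355 normalized CPM over the 12 microglia libraries (median 307). It ranged from 8.90 to 49.2 in the 8 oligodendrocyte libraries (median 13.1), from 3.48 to 32.1 in the 11 OPC libraries (median 7.06), and from 0.554 to 8.22 in the 12 astrocyte libraries (median 1.80). Every microglia library lay above every other library. The level in microglia was 13.9-fold that in oligodendrocytes (log2 difference 3.79, SE 0.41, adjusted p = 6.73e-11) and 124-fold that in astrocytes. Oligodendrocytes lay above OPCs by 1.09 on the log2 scale (SE 0.36, adjusted p = 0.0130), and OPCs above astrocytes by 2.08 (SE 0.36, adjusted p = 7.45e-06). The step between oligodendrocytes and OPCs lost its call with total-count scaling (OPC minus oligodendrocyte -0.11, adjusted p = 0.808), in control libraries alone (adjusted p = 0.220), and without the oligodendrocyte control library of pair 3 (-0.69, adjusted p = 0.106) or the Rag2-/- library of pair 5 (-0.85, adjusted p = 0.0503). Over all alternatives its adjusted p ranged from 1.52e-08 to 0.808. Its levels outside microglia are set beside the microglia list further on.

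Tgfb2 (ENSMUSG00000039239, chr1:186354985-186438294, minus strand), the ligand without the motif, was highest in astrocytes and OPCs. It ranged from 23.9 to 66.4 normalized CPM in astrocytes (median 42.0), from 22.2 to 42.1 in OPCs (median 28.2), from 0.314 to 15.2 in oligodendrocytes (median 2.55) and from 0.0625 to 3.10 in microglia (median 0.710). Astrocyte and OPC libraries overlapped, and the gap between them of 0.62 on the log2 scale (SE 0.31) was not called (adjusted p = 0.105). Leaving out the filter on low counts (adjusted p = 0.00601), or the oligodendrocyte Rag2-/- library of pair 3 (0.0262) or of pair 5 (0.0360), made it a call, and its adjusted p ranged up to 0.552. OPCs exceeded oligodendrocytes by 2.88 (SE 0.40, adjusted p = 1.57e-07) and oligodendrocytes exceeded microglia by 2.26 (SE 0.42, adjusted p = 1.13e-05). Its level in microglia rests on few reads, 26 counts in all over 6 control and 119 over 6 Rag2-/- libraries.

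Tgfb3 (ENSMUSG00000021253, chr12:86102756-86126301, minus strand), which carries the motif, was highest in oligodendrocytes and lowest in microglia. It ranged from 1.38 to 28.4 normalized CPM in oligodendrocytes (median 20.1), from 3.78 to 6.93 in OPCs (median 4.96), from 0.794 to 7.43 in astrocytes (median 4.09) and from 0.0747 to 1.43 in microglia (median 0.290). Oligodendrocytes exceeded OPCs by 1.48 on the log2 scale (SE 0.39, adjusted p = 0.00224). That call was lost with total-count scaling (OPC minus oligodendrocyte -0.50, adjusted p = 0.280) and in control libraries alone (adjusted p = 0.310), within a range of 0.000400 to 0.310 over the alternatives. OPCs and astrocytes did not differ beyond their spread (0.32, SE 0.36, adjusted p = 0.503), and astrocytes exceeded microglia by 3.22 (SE 0.41, adjusted p = 3.42e-09). The oligodendrocyte list stood at a median of 21.7% of its own level in the astrocyte libraries. The part of oligodendrocyte reads in the astrocyte level of Tgfb3 was not tested. Genes on the opposite strand overlap 13.03% of the exonic bases of Tgfb3, and whether the counting used strand is not given in the sources used here, so this gene is the least certain of the 10.

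Different genes are set side by side here only per kilobase of exon. On that scale the more abundant of Tgfb1 and Tgfb2 changed with the cell type. Tgfb1 exceeded Tgfb2 in 12 of 12 microglia libraries (means of 58.0 and 0.167 normalized CPM per kb) and in 8 of 8 oligodendrocyte libraries (4.37 and 0.647). Tgfb2 exceeded Tgfb1 in all 12 astrocyte libraries (7.21 and 0.489) and in all but 2 of 11 OPC libraries (4.67 and 2.12). Tgfb2 exceeded Tgfb3 in 12 of 12 astrocyte and 11 of 11 OPC libraries, but in 1 of 8 oligodendrocyte libraries. In oligodendrocytes Tgfb3 had a mean of 3.14 (SD 1.81), beside 4.37 (SD 3.10) for Tgfb1. Those means lie within each other's spread, so no main ligand is named there.

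Tgfbr1 (ENSMUSG00000007613, chr4:47353134-47414931, plus strand), the receptor kinase that phosphorylates the SMADs, was the most abundant of the 10 genes in microglia, at 907 to 1331 normalized CPM (median 1018), or a mean of 157 normalized CPM per kb. Its range was 33.4 to 161 in oligodendrocytes (median 64.4), 41.6 to 117 in OPCs (median 55.3) and 11.7 to 34.6 in astrocytes (median 20.4). Microglia exceeded oligodendrocytes 13.6-fold (log2 difference 3.76, SE 0.25, adjusted p = 7.28e-17). Oligodendrocytes and OPCs did not differ beyond their spread (0.12, SE 0.22, adjusted p = 0.695), and with total-count scaling that difference turned over, OPCs exceeding oligodendrocytes by 0.87 (adjusted p = 0.00181, with a range up to 0.974 over the alternatives). OPCs exceeded astrocytes by 1.79 (SE 0.20, adjusted p = 1.02e-09).

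Tgfbr2 (ENSMUSG00000032440, chr9:115913361-116004800, minus strand), the receptor that binds the ligand first, had the same order at a lower level. It ranged from 225 to 355 normalized CPM in microglia (median 286), from 3.07 to 49.4 in oligodendrocytes (median 8.73), from 7.64 to 26.3 in OPCs (median 10.5) and from 0.794 to 10.9 in astrocytes (median 4.86). Microglia exceeded oligodendrocytes 17.1-fold (log2 difference 4.10, SE 0.40, adjusted p = 6.19e-12). Oligodendrocytes and OPCs did not differ beyond their spread (0.37, SE 0.35, adjusted p = 0.417), with OPCs the higher under total-count scaling (0.56) and without the pair 3 libraries (0.26), and OPCs exceeded astrocytes by 1.41 (SE 0.33, adjusted p = 0.000443). Tgfbr1 exceeded Tgfbr2 per kilobase in all 43 libraries, with means of 157 and 32.4 normalized CPM per kb in microglia and of 3.10 and 0.560 in astrocytes.

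Smad3 (ENSMUSG00000032402, chr9:63554049-63665476, minus strand), which carries the signal to the nucleus, varied least of the microglia-high genes. It stood at 79.9 to 121 normalized CPM in microglia (median 104.2), 19.5 to 45.1 in OPCs (median 28.6), 9.36 to 46.0 in oligodendrocytes (median 22.8) and 13.5 to 25.1 in astrocytes (median 18.2). Microglia exceeded OPCs 3.38-fold (log2 difference 1.76, SE 0.17, adjusted p = 7.14e-12). OPCs and oligodendrocytes did not differ beyond their spread (0.21, SE 0.19, adjusted p = 0.397), although total-count scaling raised that gap to 1.24 (adjusted p = 1.87e-06, the lowest of a range up to 0.854). The step of 0.54 from oligodendrocytes down to astrocytes (SE 0.19, adjusted p = 0.0150) depended on single libraries and on the scaling. It turned over with total-count scaling (astrocyte minus oligodendrocyte 0.11) and lost its call without the oligodendrocyte control library of pair 6 (adjusted p = 0.242), the Rag2-/- library of pair 5 (0.187) or that of pair 3 (0.0837), in either genotype alone (0.129 and 0.144), without the filter (0.0504) and without the pair 3 libraries (0.0608), within a range of 0.00134 to 0.665.

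Nrros (ENSMUSG00000052384, chr16:31960320-31984521, minus strand), the anchor of latent TGF-β on microglia, ranged from 268 to 427 normalized CPM in the 12 microglia libraries (median 308). The other cell types lay at 1.53 to 38.4 (oligodendrocytes, median 16.1), 7.89 to 31.1 (astrocytes, median 13.4) and 4.70 to 39.7 (OPCs, median 9.41), and overlapped throughout. Microglia exceeded oligodendrocytes 19.7-fold (log2 difference 4.30, SE 0.39, adjusted p = 5.24e-13), astrocytes 22.2-fold and OPCs 24.8-fold. The order below microglia was not resolved (oligodendrocytes minus astrocytes 0.17, adjusted p = 0.696, and astrocytes minus OPCs 0.16, adjusted p = 0.706). Without the pair 3 OPC and oligodendrocyte libraries astrocytes exceeded OPCs by 0.77 (adjusted p = 0.00195, in a range up to 0.873) and oligodendrocytes by 0.59 (adjusted p = 0.0365, in a range up to 1.00), and under total-count scaling astrocytes lay 0.22 below OPCs and 0.40 above oligodendrocytes.

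Itgav (ENSMUSG00000027087, chr2:83554403-83637260, plus strand), the αv chain shared by these integrins, was the most evenly expressed of the 10. It ranged from 270.2 to 365 normalized CPM in OPCs (median 321), 257 to 382 in microglia (median 322), 208 to 270.3 in astrocytes (median 227) and 85.0 to 195 in oligodendrocytes (median 134). OPCs and microglia did not differ beyond their spread (0.03, SE 0.10, adjusted p = 0.781). Microglia exceeded astrocytes 1.36-fold (adjusted p = 8.81e-05) and astrocytes exceeded oligodendrocytes 1.68-fold (adjusted p = 3.25e-07). The gap between OPCs and astrocytes (0.48, adjusted p = 0.000114) was not called in Rag2-/- libraries alone (adjusted p = 0.101, the highest over the alternatives).

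The β chains divided the cell types. Itgb5 (ENSMUSG00000022817, chr16:33649988-33771137, plus strand), the β5 chain, ranged from 228 to 365 normalized CPM in microglia (median 283), 39.7 to 63.8 in astrocytes (median 56.4), 8.26 to 56.5 in oligodendrocytes (median 18.1) and 10.2 to 26.2 in OPCs (median 17.5). Itgb8 (ENSMUSG00000025321, chr12:119121748-119202584, minus strand), the β8 chain, ran the other way, at 171 to 243 in OPCs (median 198), 118 to 167 in astrocytes (median 148), 57.5 to 125 in oligodendrocytes (median 87.6) and 1.27 to 6.00 in microglia (median 3.11). No microglia library overlapped any other library for either gene. Microglia exceeded astrocytes 5.41-fold for Itgb5 (log2 difference 2.43, SE 0.19, adjusted p = 1.08e-14) and fell below oligodendrocytes by 4.92 on the log2 scale for Itgb8 (SE 0.18, adjusted p = 4.40e-26), which is 30.2-fold. Against OPCs the microglia level of Itgb8 was 69.7-fold lower.

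Below microglia, astrocytes exceeded oligodendrocytes for Itgb5 by 1.20 (SE 0.22, adjusted p = 1.55e-05), while oligodendrocytes and OPCs did not differ beyond their spread (0.45, SE 0.21, adjusted p = 0.0918). That last gap was called with DESeq2's size factors (0.0460), and without the oligodendrocyte library of the pair 1 Rag2-/- mouse (0.0299), the pair 6 control (0.0221) or the pair 6 Rag2-/- mouse (0.0215), in a range up to 0.850, and total-count scaling turned it over (OPC minus oligodendrocyte 0.52). For Itgb8, OPCs exceeded astrocytes by 0.53 (SE 0.14, adjusted p = 0.00246), a call lost in control libraries alone (adjusted p = 0.182, the highest over the alternatives) and in Rag2-/- libraries alone (0.0591), and astrocytes exceeded oligodendrocytes by 0.68 (SE 0.16, adjusted p = 0.000401). Per kilobase, Itgb5 exceeded Itgb8 in 12 of 12 microglia libraries, with means of 40.7 and 0.268 normalized CPM per kb. Itgb8 exceeded Itgb5 in all 12 astrocyte libraries (12.7 and 7.49), all 11 OPC libraries (18.3 and 2.45) and all but 1 of 8 oligodendrocyte libraries (7.96 and 3.42). Of these β chains, β5 transcripts were thus the more abundant in microglia and β8 transcripts in the other glia, with αv transcripts present in all of them.

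**Figure D2:**
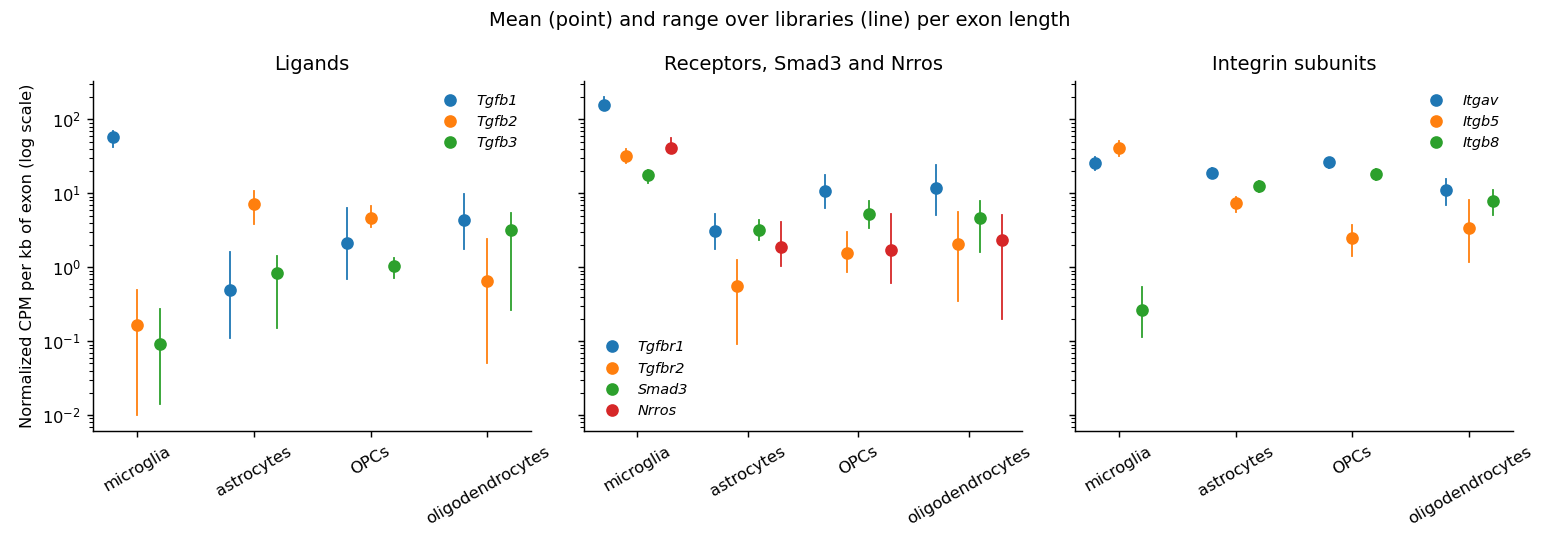
Mean normalized CPM per kb of exon (points, log axis) and range over libraries (lines) in the 4 cell types, for the ligands, for the receptors with Smad3 and Nrros, and for the integrin subunits. Tgfb1 and Itgb5 lead their panels' other ligands and β chain in microglia (58.0 and 40.7), and Tgfb2 and Itgb8 in astrocytes (7.21 and 12.7).

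Between astrocytes and OPCs, 1 of the 10 genes was called higher in astrocytes and 6 in OPCs, where 17.1% and 25.4% of all genes were called. Between astrocytes and oligodendrocytes 4 were higher in astrocytes and 5 in oligodendrocytes (24% and 25.7% of all genes), and between OPCs and oligodendrocytes 3 were higher in OPCs and 2 in oligodendrocytes (25% and 15.7%). The contrasts with oligodendrocytes depend on the scaling. Total counts in place of TMM moved the median of all genes from 0.24 to 1.25 on the log2 scale for OPCs minus oligodendrocytes, from 0.01 to 0.64 for astrocytes minus oligodendrocytes, from 0.09 to 0.98 for microglia minus oligodendrocytes and from -0.14 to -0.53 for astrocytes minus OPCs. The calls of all genes between OPCs and oligodendrocytes changed from 5347 higher and 3356 lower to 13644 and 990, and those of the 10 genes from 3 and 2 to 5 and 0. For astrocytes minus oligodendrocytes all genes changed from 5135 and 5482 to 9462 and 3087, for microglia minus oligodendrocytes from 7426 and 7096 to 11206 and 4643, and for astrocytes minus OPCs from 3658 and 5436 to 2304 and 8792. Between OPCs and oligodendrocytes the calls moved less with DESeq2's size factors (4836 higher and 3696 lower, 3 and 3 of the 10). Without mitochondrial genes they were 5243 and 3420 (3 and 2 of the 10).

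The genes that microglia hold at a high level were set beside the microglia list in the 31 astrocyte, OPC and oligodendrocyte libraries, each gene as a percentage of its mean microglia level. In astrocytes Tgfb1 stood at 0.188 to 2.79% of its microglia level, under the list's median in 12 of 12 libraries. It exceeded the list's median in 3 of 11 OPC libraries and 4 of 8 oligodendrocyte libraries. Tgfbr2 exceeded it in 9 of 12 astrocyte, 6 of 11 OPC and 4 of 8 oligodendrocyte libraries, and Nrros in 11, 5 and 3. So in OPCs and oligodendrocytes these 3 genes lay around the level of the microglia list, and the part of microglial reads in their levels there was not tested.

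Tgfbr1 exceeded the list's median in 8 of 12 astrocyte, 11 of 11 OPC and 6 of 8 oligodendrocyte libraries, at 4.00 to 11.2% of its microglia level in OPCs. Itgb5 did so in all 12 astrocyte libraries, where it stood at 13.8 to 22.2% and above the highest gene of the list, but in 9 of 11 OPC and 4 of 8 oligodendrocyte libraries. Smad3 exceeded the list's median in all 31 libraries and its highest gene in 12, 11 and 7. Itgav stood above the highest gene of the list in all 31. Tgfb2, Tgfb3 and Itgb8 were lower in microglia than in each other cell type, so they have no such percentage.

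**Figure D3:**
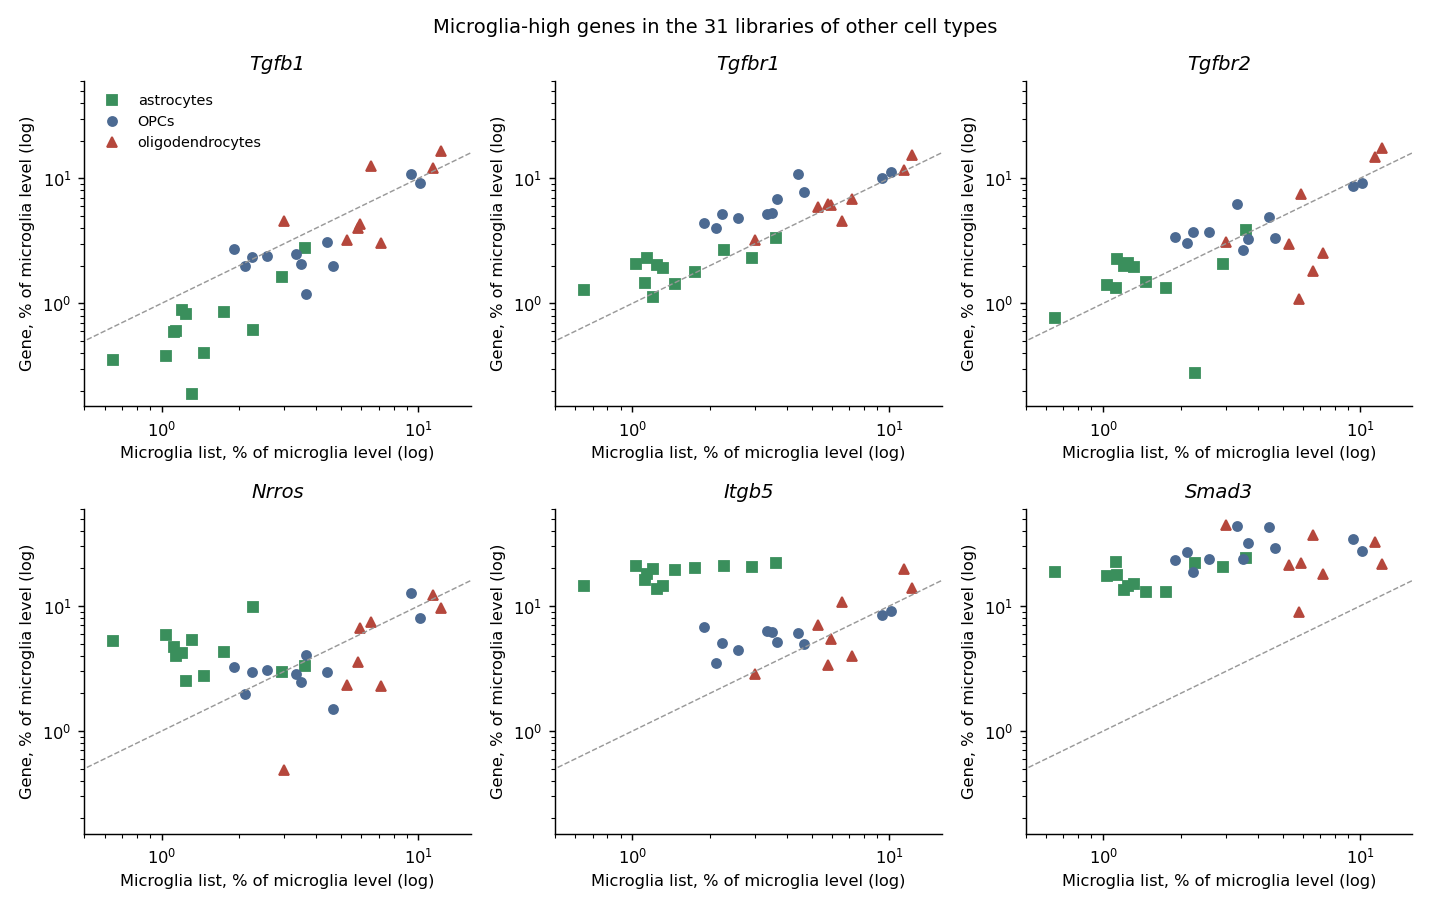
Each point is 1 of the 31 astrocyte, OPC and oligodendrocyte libraries, with the median percentage of the microglia level over the 9 microglia list genes on the x axis and the percentage of the microglia level of 1 gene on the y axis (both log axes, the dashed line marking equality). Tgfb1, Tgfbr2 and Nrros lie around the line in OPCs and oligodendrocytes, Itgb5 lies above it in astrocytes, and Smad3 lies above it everywhere.

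The genotypes were compared within each cell type, as Rag2-/- minus control with sex as a term. With edgeR 0 of the 8 genes that passed the filter in microglia were called, where 0.00667% of all genes were (1 of 15003). Of the 10 genes 0 were called in astrocytes (0.00679% of all genes), in OPCs (0.00592%) and in oligodendrocytes (0%). At an unadjusted p under 0.05 the count was 0 of the 8 genes tested in microglia and 0 of the 10 in each other cell type, against 435, 423, 679 and 467 of all genes in microglia, astrocytes, OPCs and oligodendrocytes. Without the filter edgeR tested all 10 in microglia, where 0 were called and 1 was under 0.05 before adjustment, Tgfb2. DESeq2 called 0 of the 10 in each cell type, where it called 0.00912%, 0.00297%, 0.0148% and 0.691% of all genes with a count. Tgfb2 in microglia was the 1 under 0.05 before adjustment with DESeq2, as were 2.58% of all genes there. The median difference of the genes tested was 0.05 in microglia, -0.06 in astrocytes, 0.01 in OPCs and 0.25 in oligodendrocytes on the log2 scale, beside -0.01, 0.00, -0.01 and 0.00 for all genes. The control and Rag2-/- libraries overlapped for each of the 10 genes in each cell type, where 0.133%, 0.122%, 0.403% and 2.31% of all genes tested did not overlap in microglia, astrocytes, OPCs and oligodendrocytes. With littermate pair as a replicate block in place of sex, 0 of the 8 genes tested in microglia and 0 of the 10 in each other cell type were called. That block does not separate sex from genotype in pair 6.

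**Figure D4:**
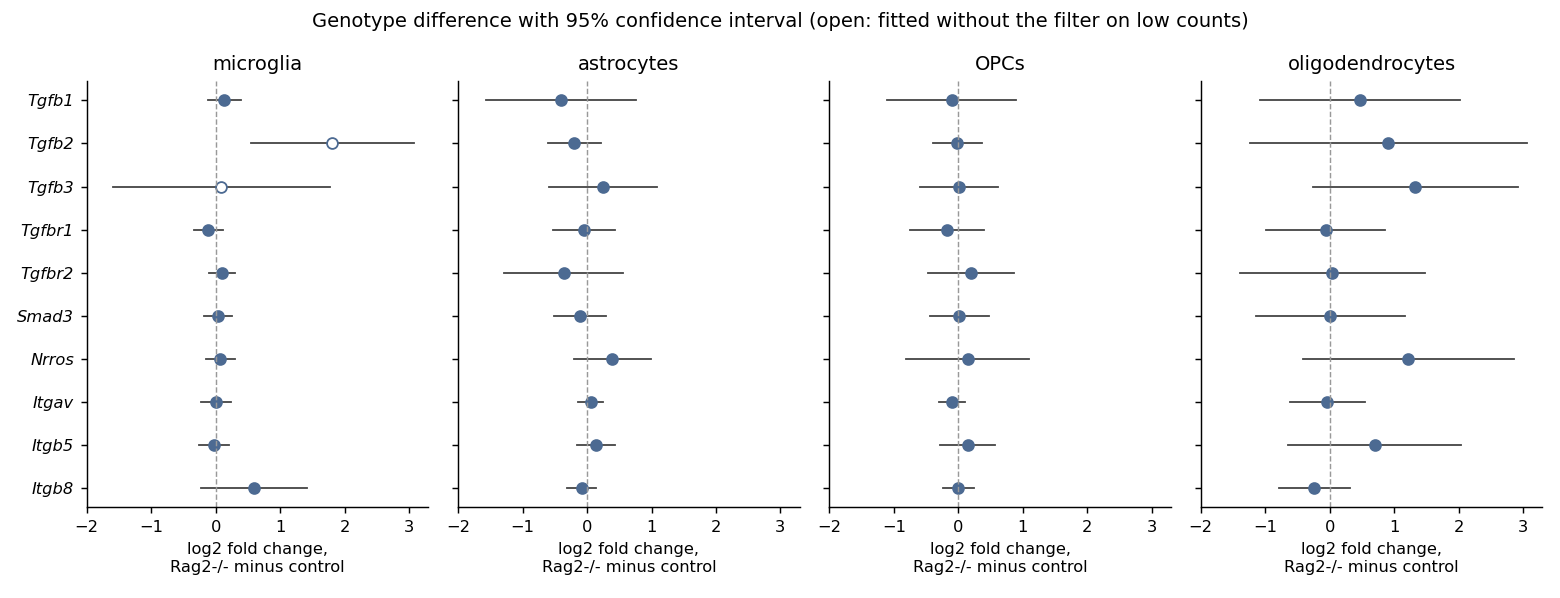
Log2 fold change, Rag2-/- minus control, of the 10 genes in each cell type with its 95% confidence interval (open points, Tgfb2 and Tgfb3 in microglia, were fitted without the filter on low counts). All intervals cross 0 except that of Tgfb2 in microglia (0.55 to 3.07), and those of the genes abundant in microglia are narrow.

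In microglia the intervals were narrow for the abundant genes. Tgfb1 was 217, 297 and 327 normalized CPM at the lowest, median and highest of 6 controls, and 263, 307 and 355 of 6 Rag2-/- libraries. The ranges overlapped over most of their length, Rag2-/- was the higher in 3 of 6 littermate pairs, and the log2 difference of 0.13 (SE 0.12, edgeR adjusted p = 0.999) has a 95% confidence interval of 0.921 to 1.31-fold. Itgb5 was 249, 283 and 365 in controls and 228, 287 and 323 in Rag2-/- libraries. It was higher in Rag2-/- in 2 of 6 pairs and differed by -0.03 (SE 0.11), with an interval of 0.839 to 1.15-fold.

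For Tgfbr1 the controls spread from 908 to 1331 normalized CPM (median 1062) and the Rag2-/- libraries from 907 to 1065 (median 1005), a difference of -0.11 (SE 0.11, interval 0.794 to 1.08-fold). For Tgfbr2 the interval was 0.932 to 1.23-fold, for Smad3 0.880 to 1.19-fold, for Nrros 0.904 to 1.23-fold and for Itgav 0.852 to 1.18-fold. Itgb8, near the lower end of detection in microglia, differed by 0.59 (SE 0.40), with Rag2-/- higher in 5 of 6 pairs and an interval of 0.852 to 2.66-fold. The intervals of the 7 abundant genes thus ran from 0.794 to 1.31-fold in all.

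Tgfb2 was the member of the list that stood out in microglia, at very low counts. Control libraries of pairs 1 to 6 held 4, 3, 1, 4, 13 and 1 counts and Rag2-/- libraries 8, 29, 16, 15, 45 and 6, or 0.0625 to 1.33 normalized CPM (median 0.306) against 0.545 to 3.10 (median 1.23). Rag2-/- was the higher in 6 of 6 pairs, a pattern found in 1.22% of genes with a count, and the groups overlapped. Too few libraries reached the minimum count for this gene to be kept in the fit. Without the filter the difference was 1.81 (SE 0.64, unadjusted p = 0.00498 and adjusted p = 0.925 with edgeR, range of the adjusted p over the alternatives 0.837 to 1.00). These levels are 0.138 to 2.95% of the astrocyte mean in controls and 1.21 to 6.87% in Rag2-/- libraries, while a list of 10 astrocyte genes stood at 0.516 to 0.752% and 0.457 to 1.12% of its astrocyte level in those libraries. The part of astrocyte reads in this difference was not tested. Female mice gave 3 and 13 of these counts in controls and 29, 45 and 6 in Rag2-/- mice. Between sexes Tgfb2 in microglia was also under 0.05 before adjustment without the filter (edgeR unadjusted p = 0.0354, adjusted p = 0.902).

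In oligodendrocytes Tgfb3 was 10.2, 21.9, 5.87 and 1.38 normalized CPM in the controls of pairs 1, 3, 5 and 6, and 21.4, 22.99, 28.4 and 18.7 in their Rag2-/- littermates. Nrros was 7.34, 30.1, 7.20 and 1.53 in controls and 21.1, 38.4, 23.4 and 11.2 in Rag2-/- libraries. Both were higher in Rag2-/- in 4 of 4 pairs, as were 6.16% of all genes tested, and in both the pair 3 control lay among the Rag2-/- libraries. Pair 6 set a male control against a female Rag2-/- mouse. The differences of 1.33 for Tgfb3 (SE 0.73, unadjusted p = 0.0943) and 1.22 for Nrros (SE 0.75, unadjusted p = 0.1301) were not called (edgeR adjusted p = 0.998 for both, and 0.863 to 1.00 and 0.913 to 1.00 over the alternatives). Without the filter the unadjusted p of Tgfb3 was 0.0407 (edgeR adjusted p = 0.913). With 4 libraries a genotype and SEs of 0.25 to 0.98 over the 10 genes, oligodendrocytes could show large differences only. Tgfb1 was 9.46, 49.2, 8.90 and 13.5 in controls and 12.8, 35.4, 37.1 and 11.7 in Rag2-/- libraries, where the microglia list ranged from 3.00 to 12.2% and from 5.79 to 11.4% of its microglia level.

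In OPCs Itgb5 was higher in Rag2-/- in 5 of 5 pairs, as were 3.86% of all genes tested. Its levels were 17.9, 10.2, 24.6, 14.3 and 14.4 normalized CPM in the controls of pairs 1, 2, 3, 4 and 6, and 19.4, 12.7, 26.2, 18.2 and 14.9 in their littermates. The difference of 0.14 (SE 0.20) was smaller than the spread between animals and was not called. The astrocyte list stood at a median of 9.13% of its own level in control and 13.9% in Rag2-/- OPC libraries, and the oligodendrocyte, endothelial, and mural cell and fibroblast lists summed to medians of 546, 54.5 and 152 normalized CPM in controls and 1087, 103 and 269 in Rag2-/- libraries. Their part in the OPC values was not tested. In OPCs and astrocytes the differences of the 10 genes ran from -0.18 to 0.20 and from -0.40 to 0.39. Astrocyte Nrros was the upper end (0.39, SE 0.29, interval 0.865 to 1.99-fold) and astrocyte Tgfb1 the lower (-0.40, SE 0.55, interval 0.339 to 1.69-fold).

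Whether the genotype effect itself differed among the cell types was tested over all 43 libraries. Of the 10 genes 0 were called by edgeR, where 0.248% of all genes were (53 of 21368). Before adjustment 1 was under 0.05, Tgfb2 (edgeR adjusted p = 0.376), as were 11.2% of all genes. Without the filter on low counts Tgfb2 was called (adjusted p = 0.00641, in a range up to 0.767), as were 1011 of 39266 genes. Between sexes, edgeR called 0 of the 8 genes tested in microglia (0.0467% of all genes), and 0 of the 10 in astrocytes (0.0407%), OPCs (0.0296%) and oligodendrocytes (0.0362%). DESeq2 called 0 of the 10 in each, where it called 0.0334%, 0.0535%, 0.0384% and 1.48% of all genes with a count. At an unadjusted p under 0.05 edgeR gave Itgb5 in OPCs, lower in females (female minus male -0.46, SE 0.21, edgeR adjusted p = 0.999), and Tgfbr2 in oligodendrocytes. Of all genes 4.30% and 8.23% were under 0.05 there. DESeq2 gave 1, 0, 2 and 2 of the 10 in microglia, astrocytes, OPCs and oligodendrocytes, beside 3.08%, 4.51%, 3.98% and 9.04% of all genes. The 1 in microglia was Tgfb2 (DESeq2 unadjusted p = 0.0395), at the very low counts given above. For Tgfbr2 in oligodendrocytes the 3 female libraries held 7.20, 5.18 and 3.07 normalized CPM and the 5 male libraries 8.58, 21.4, 49.4, 41.9 and 8.87. Every female library lay below every male one, as for 4.31% of all genes tested (difference -2.21, SE 0.73, unadjusted p = 0.0111, adjusted p = 0.505, 0.0743 to 0.800 over the alternatives). The 49.4 and 41.9 were the pair 3 libraries, in which the microglia list stood highest.

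The rest of the pathway was read from lists of its other genes. In the comparison by genotype edgeR tested 38, 32, 37 and 33 of these genes in microglia, astrocytes, OPCs and oligodendrocytes, and called 0 in each. It put 0, 0, 2 and 1 at an unadjusted p under 0.05, beside 2.90%, 2.87%, 4.02% and 3.38% of all genes. DESeq2 tested 40 in each and called 0, with 0, 2, 2 and 3 under 0.05, beside 2.58%, 2.64%, 3.69% and 5.37% of all genes. The 9 matched microglia genes known to need TGF-β had a median difference of -0.02 in microglia, from -0.24 to 0.13. P2ry12, a purinergic receptor of homeostatic microglia, was 844 ± 147 normalized CPM in controls and 852 ± 69.2 in Rag2-/- microglia (SD, n = 6 each), Tmem119 was 512 ± 158 and 485 ± 68.6, and P2ry13 was 324 ± 38.5 and 337 ± 77.6. The 8 genes that TGF-β is known to hold down had a median of 0.01, from -0.17 to 0.60. Among them the lipoprotein Apoe was 858 ± 299 and 900.5 ± 228, the mannose receptor Mrc1, also a marker of border macrophages, was 324 ± 63.3 and 297 ± 67.4, and the lipase Lpl was 98.2 ± 17.6 and 98.8 ± 22.2. The 7 border macrophage markers were present in the microglia libraries, with a summed level of 359 to 875 normalized CPM in controls and 415 to 753 in Rag2-/- libraries, beside 10005 to 12973 for the microglia list over both. The 8 T and B lymphocyte markers summed to 4.71 to 11.3 and 1.52 to 10.3, and their part in these values was not tested.

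Of the other Smads and their regulators 9 of 10 were called higher in microglia than in each other cell type and 1 lower (of all genes, 33.5% were higher and 36.5% lower against astrocytes, 30.8% and 38.7% against OPCs, and 34.8% and 33.2% against oligodendrocytes). The lower gene was Zfyve9, which brings SMADs to the receptor. Skil and Ski, corepressors of SMADs, were 945 ± 103 and 357 ± 54.7 normalized CPM in microglia (SD, n = 12), and Tgif1, another corepressor, was 213 ± 12.8, against 20.8, 69.6 and 3.02 in astrocytes. Of the latent complex and activation genes 8 of 10 were tested, and microglia were higher for 4 and lower for 3 against astrocytes, 3 and 4 against OPCs, and 4 and 3 against oligodendrocytes, beside those same shares of all genes. Itgb1 and Itgb3, further integrin β chains that pair with αv, were 168 ± 21.2 and 45.4 ± 12.9 in microglia, and Furin, the protease that cuts the TGF-β precursor, was 129.8 ± 16.3. Itgb6, the β6 chain, had no count in any library. The matrix anchor Ltbp1, added here after its values were seen, was lowest in microglia, where Nrros was highest. Ltbp1 was 84.0 ± 13.3 in OPCs (n = 11), 53.0 ± 8.39 in astrocytes (n = 12), 20.98 ± 11.9 in oligodendrocytes (n = 8) and 0.814 ± 0.728 in microglia.

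Of the 4 further receptor genes, microglia were higher for 2 and lower for 2 against astrocytes and against OPCs, and higher for 2 and lower for 1 against oligodendrocytes. For these and the following lists the shares of all genes are again 33.5% and 36.5%, 30.8% and 38.7%, and 34.8% and 33.2%. Eng and Acvrl1, the co-receptor endoglin and a type I receptor of endothelium, were 40.3 ± 5.42 and 10.4 ± 2.10 in microglia, and Tgfbr3, betaglycan, was 1.36 ± 1.19 there and 7.80 in OPCs. Of the genes that need TGF-β, microglia were higher for 8 of 9 against astrocytes and for 9 of 9 against OPCs and oligodendrocytes. The exception was Mertk, a phagocytic receptor, at 419 in astrocytes and 341 in microglia. The 9 genes were listed as microglia genes, and P2ry12 and Tmem119 are also in the microglia list. The choice of list thus largely fixed these counts. Of the 8 genes held down by TGF-β, microglia were higher for 6, 5 and 7 and lower for 2, 1 and 0 against astrocytes, OPCs and oligodendrocytes.

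The 3 genes whose pattern over the 43 libraries was most like each of the 10 were taken by Pearson's r of log2(normalized CPM + 1) among 21368 genes, as a description, since the libraries share cell type and lane. For Tgfb1 they were Ucp2 (0.988), Unc93b1 and Cd68, for Tgfbr1 Skil (0.990), Rel and B2m, for Tgfbr2 Hvcn1 (0.976), Arap3 and Tnfaip3, for Nrros Tnfaip2 (0.971), Cyba and Ctsb, for Smad3 Il21r (0.947), Kcnk6 and Lpl, and for Itgb5 Nfe2l2 (0.972), Cst3 and Actg1. For Tgfb2 they were Dag1 (0.967), Rnf182 and Fam181b, for Itgb8 Pcdh17 (0.986), Gria2 and Zcchc24, and for Itgav Chic2 (0.908), Tmem176b and Itpr2. Tgfb3 had the weakest match, with C230086J09Rik (0.900), Upp2 and Gm42692. Among the 10 genes, Tgfb1 and Tgfbr1 had an r of 0.968, and Tgfb1 and Itgb8 of -0.906.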

How the data were processed

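RNA from immunopanned cells had been amplified and sequenced by the authors, who aligned the reads to GRCm39 with STAR 2.7.8a and counted them per gene with HTSeq, per the labels and the study's methods. The deposited values are raw counts per gene and library. The counting mode and its strand setting are not given in the sources used here. Of the 55416 gene IDs, 54749 were matched to GENCODE M39, a later release than the Ensembl annotation the authors used, and 33.5 to 52.0% of counts per library were in rows that name no gene and were left out.

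Counts were tested with edgeR 4.0.16 in R 4.3.3 (quasi-likelihood test, TMM, filterByExpr, whose lower limits were 10 counts in enough libraries and 15 in all). Genotype and sex were terms of 1 fit per cell type, and cell types and the interaction were taken from a fit over all 43 libraries. That joint fit treated libraries of different cell types from the same mouse as independent. Its block alternative took the mouse, not the littermate pair, as the block. Called means a Benjamini-Hochberg adjusted p under 0.05, over all genes tested. DESeq2 ran with its default filter, which can leave genes of low count without an adjusted p. Such genes count as not called, and DESeq2's shares are of all genes with a count. The fits were tested on simulated data first. The genes followed and all lists were chosen with earlier results of these data known, and the like genes and the pathway genes named were the top 3 by r and by CPM per kb of exon in control microglia, except where the text says otherwise. Zfyve9 and Mertk were named as exceptions to a count. The list of general target genes is not reported here.

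Genotypes are paired by the labels, as littermates. Deviations from group means correlated within littermate pairs at a mean r of 0.0546 in microglia, 0.0779 in astrocytes, 0.0676 in OPCs and 0.0787 in oligodendrocytes, against -0.0110, -0.0150, -0.0134 and -0.0260 between other pairs. A replicate block for the pair called 1, 1, 1 and 0 genes, as did the fit with sex. Alternatives were DESeq2 1.42.0, its size factors, total counts, no filter, no mitochondrial genes, no sex term, Rag2+/- controls only, 1 genotype only and leaving out 1 library. Each library was left out in the fits per cell type. In the fit over all 43 libraries only the 13 OPC Rag2-/- and oligodendrocyte libraries were left out, 1 at a time. Leaving out the pair 3 OPC and oligodendrocyte libraries was chosen after their microglia marker levels were seen.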

Additional observations from a re-analysis of the deposited data

Results flagged for a closer look

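In 14 of 80 groups of libraries (10 genes in 8 groups) the highest or lowest library lay apart from the rest of its group by more than Dixon's 95% limit, and chance gives about 1 in 20 groups. The 14 values came from 10 libraries. In 8 of the groups the library was a pair 3 OPC or oligodendrocyte library. Tgfb1 was 32.1 normalized CPM in the control OPC library of pair 3 (the others 5.85 to 9.05), 26.98 in the Rag2-/- one (3.48 to 7.98) and 49.2 in the control oligodendrocyte library (8.90 to 13.5). Tgfbr2 was 24.6 in the control OPC library (7.64 to 13.9) and 49.4 in the control oligodendrocyte library (7.20 to 8.87). Nrros was 39.7 in the control OPC library (4.70 to 9.41) and 25.2 in the Rag2-/- one (8.98 to 12.7). Tgfb2, which is low in microglia, was 15.2 in the Rag2-/- oligodendrocyte library of pair 3 (0.314 to 2.66). The microglia list stood at 9.37 to 12.2% of its microglia level in these 4 libraries, and its part in the values was not tested.

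In astrocytes Tgfb1 was 8.22 in the control library of pair 3 (1.04 to 2.50), where the microglia list was also highest for astrocytes at 3.61%, Tgfbr2 was 0.794 in the Rag2-/- library of pair 1 (4.00 to 5.86) and Itgb5 was 41.4 in the Rag2-/- library of pair 4 (55.7 to 60.5). Tgfb2 was 42.1 in the control OPC library of pair 4 (22.2 to 28.9). Smad3 was 46.0 in the control oligodendrocyte library of pair 6 (18.9 to 22.6). Nrros was 427 in the Rag2-/- microglia library of pair 5 (283 to 328).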

How the results depend on the processing

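The genotype and sex comparisons called 0 of the genes tested under every alternative run, littermate pair as a replicate block included. In microglia 8 or 9 of the 10 were tested, and all 10 only without the filter and with DESeq2. Counts over all genes moved with the tool and the filter. By genotype, without the filter 9 genes were called in microglia, 30 in astrocytes, 90 in OPCs and 14 in oligodendrocytes, and DESeq2 called 3, 5 and 203 in microglia, OPCs and oligodendrocytes, where edgeR called 1, 1, 1 and 0. Leaving out 1 microglia library gave 1 to 2. By sex, no filter gave 25, 118, 72 and 99 and DESeq2 11, 18, 13 and 434, where edgeR called 7, 6, 5 and 5, and leaving out 1 oligodendrocyte library gave 3 to 5. The interaction called 53 genes, 1011 without the filter (1 of the 10), 5 with the mouse as a block and 115 without the pair 3 libraries. It called 29 to 158 on leaving out 1 of the 13 OPC Rag2-/- and oligodendrocyte libraries.

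Between astrocytes and OPCs 9094 genes were called, 5924 in controls alone and 4970 in Rag2-/- alone. Between OPCs and oligodendrocytes 8703 were called, 14634 with total counts, 5351 in controls alone and 5402 in Rag2-/- alone, and of the 10 genes 5, or 3 in controls alone. Of single-gene values between cell types 1216 kept side and direction, 18 lost a call, 9 gained one and 17 turned over, and by genotype and sex 657 and 527 were kept and 7 and 2 turned over. A change of sign below 1 SE of an uncalled value was not counted (127 cases).

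By genotype in oligodendrocytes Tgfb2 was -0.32 without pair 3 and -0.17 with littermate pair as a block. Between cell types, total counts gave Nrros -0.22 (astrocytes minus OPCs), 0.40 (astrocytes minus oligodendrocytes) and 0.62 (OPCs minus oligodendrocytes), Smad3 0.11 (astrocytes minus oligodendrocytes), and Tgfbr1 0.87, Tgfbr2 0.56 and Itgb5 0.52 (OPCs minus oligodendrocytes). Controls alone gave Nrros 0.28 against oligodendrocytes in astrocytes and 0.16 in OPCs, and Rag2-/- alone gave Itgav 0.095 (microglia minus OPCs). Without pair 3, Nrros was 0.59 (astrocytes minus oligodendrocytes) and Tgfbr2 0.26 (OPCs minus oligodendrocytes). On leaving out 1 library, the genotype difference ran from -0.65 to 0.46 (Tgfb1), -0.49 to 0.10 (Tgfbr1) and -0.21 to 0.17 (Smad3) in OPCs, and from -0.23 to 1.29 (Tgfb2) and -0.38 to 0.38 (Tgfbr1) in oligodendrocytes. The sex difference ran from -0.32 to 0.13 (Nrros, astrocytes) and -0.066 to 0.32 (Smad3, OPCs). Nrros ran from -0.26 to 0.44 (astrocytes minus oligodendrocytes) and -0.50 to 0.18 (OPCs minus oligodendrocytes), Tgfbr1 from -0.23 to 0.12 and Tgfbr2 from -0.56 to 0.17 (both OPCs minus oligodendrocytes). The causes were not tested.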
